A study of Mus musculus with 16 samples.

Results

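RNA that an antibody to tagged astrocyte ribosomes pulled from the mouse striatum was compared with RNA of the whole striatal lysate. Both came from the same 4 mice, numbered 970, 971, 974 and 977, so 8 of the 16 libraries of the series were compared, 4 of precipitated RNA (IP) and 4 of cleared lysate (input). They were chosen by the region and sample type in their titles. The other 8 libraries are the same kinds from the hippocampus of these mice, and they entered the fit and the comparison between regions. Every mouse, and thus every group, was hemizygous for Aldh1l1-creERT2 and heterozygous for Ribotag, was at postnatal day 63, and was of an FVB background crossed to C57/Bl6N over 3 generations (about 88% C57/Bl6N). No group without the Cre or without the tag was compared. Males and females were both used, and the sex of each animal is not given in the sources used here, nor is the tamoxifen dosing that switches creERT2 on. Values are FPKM, fragments normalised to gene length and library size, divided by a scaling factor for each library, and they are given in the order of animals 970, 971, 974 and 977. Of 24033 gene labels that are not dates, 13449 reached 1 FPKM in at least 4 of the 16 libraries and were tested (13470 with the date labels). The filter was passed by 201 genes that stayed under 1 FPKM in all 8 inputs and by 784 that stayed under it in all 8 IPs, and such genes pass only through the group where they are high.

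In the RiboTag design, Cre recombinase swaps the last exon of the ribosomal protein gene Rpl22 for a version that carries a hemagglutinin (HA) tag, so ribosomes of the cells that express Cre can be precipitated together with the messenger RNA they hold. Aldh1l1 encodes a folate enzyme of astrocytes, the glia that take up glutamate, GABA and potassium, make glutamine for neurons, store glycogen and export lipids and cholesterol. In the striatum they lie among GABA-releasing projection neurons of the direct pathway, which carry D1 dopamine receptors, those of the indirect pathway, which carry D2 receptors, and interneurons that release acetylcholine, somatostatin and neuropeptide Y or contain parvalbumin. The input holds RNA of all these cells, also RNA outside ribosomes. A ratio of IP to input in such bulk samples cannot tell fewer cells of a type from less RNA per cell, and a messenger RNA at its input level is not thereby absent from astrocytes.

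The number of counted fragments, estimated from the steps of low values, was 4140000 to 8950000 in the inputs and 13900000 to 21700000 in the IPs, so low values are less certain in input. Inputs 971 and 974 stood apart from 970 and 977. Their level of the ribosomal RNA precursor Rn45s was lower, at 4031, 950.03, 439 and 4001, that of the nuclear RNA Malat1 was higher, at 3401, 7100.1, 9485 and 3411, and their difference from the other inputs followed the GC content of the genes (Spearman rho = -0.607 across 12865 genes, which are not independent replicates), whereas the same difference between IPs did not (rho = 0.038). The IPs also differed. Summed over 25 astrocyte markers the IPs reached 20236, 21504, 12163 and 15135 against 1387, 1304, 1285 and 1150.2 in the inputs, and over 16 pan-neuronal markers 201, 231, 273 and 283 against 2318, 2621, 2924 and 2220.4. IPs 974 and 977 thus held more RNA of neuronal markers and less of astrocyte markers than IPs 970 and 971, with the IP astrocyte sums far above and the IP neuronal sums far below those of every input. The part of these differences in the results below was not tested beyond the values given without inputs 971 and 974, without single animals or libraries, or with a correction for GC content.

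Most genes tested differed between striatal IP and input. At an adjusted p under 0.05 (limma's moderated test), 4327 genes (32.1% of those tested) were higher in IP and 4456 (33.1%) lower, 65.2% in all, around a median log2 fold change of -0.03. Many of these shifts were small: 2198 of the rises and 2393 of the falls were under 1 on the log2 scale, while 188 genes rose by at least 3 and 129 fell by at least 3. The 4 IP values and the 4 input values did not overlap for 52.2% of the genes tested, and 7874 of the 8783 genes called (89.7%) moved the same way in all 4 animals, against 62.2% of all genes tested. Fold changes below are on the log2(scaled FPKM + 1) scale, which understates the change of low genes. Their standard errors had a median of 0.17, and 90% of them lay between 0.11 and 0.34. Without inputs 971 and 974, 4154 genes were higher and 4219 lower, and 7420 of the 8783 calls were kept. With 65.2% of all genes called, a call alone sets no gene or list apart, and sizes and values by library are given beside it.

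**Figure D1:**
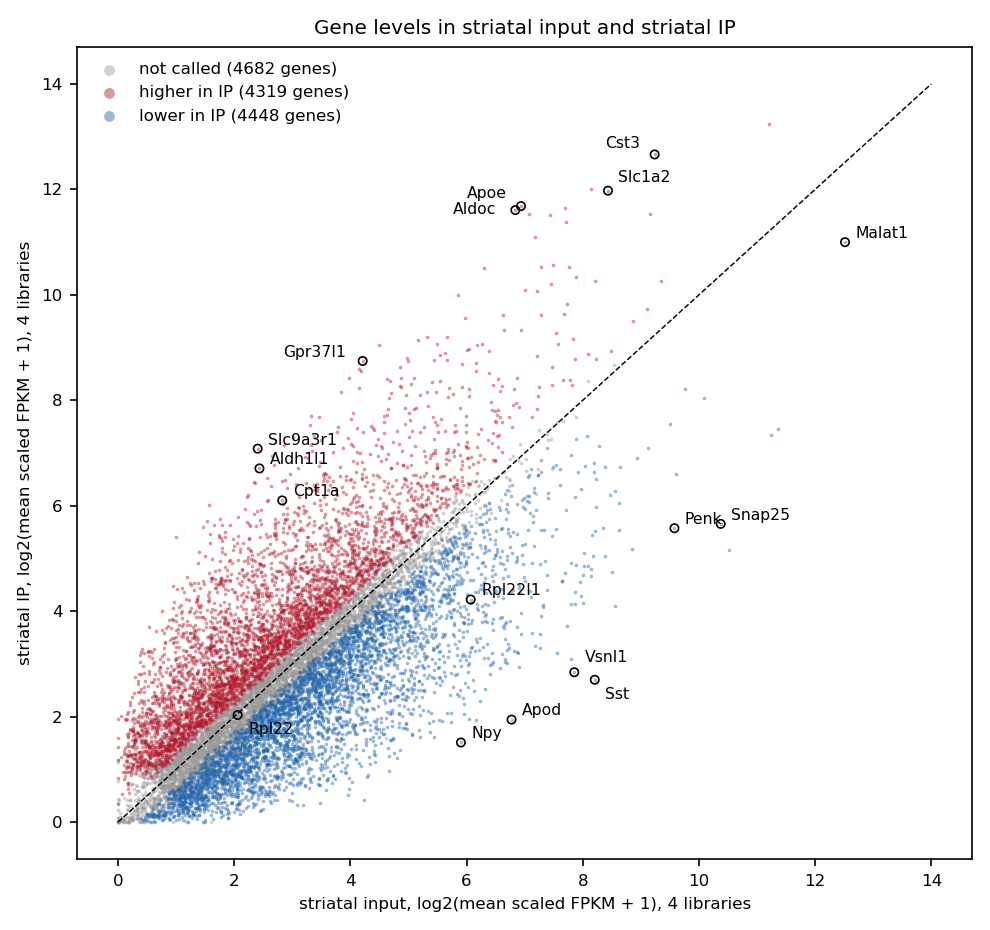
Mean level of each gene tested in striatal input (x axis) and striatal IP (y axis), both as log2 of scaled FPKM plus 1 over 4 libraries, with the dashed line at equal levels; labels that are dates are left out. Aldoc, Apoe and Aldh1l1 lie far above the line, Rpl22 lies on it, and Sst, Vsnl1 and Snap25 lie far below it.

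Aldh1l1 (chromosome 6, 90486427 to 90600203, GRCm38), whose promoter drives the Cre, was at 4.97, 3.36, 3.72 and 5.59 scaled FPKM in the inputs and 127, 123, 75.5 and 89 in the IPs. Its lowest IP, that of animal 974, was far above its highest input, that of 977, and the log2 fold change was 4.26 ± 0.19 (adjusted p = 4.52e-11). Rpl22 (chromosome 4, 152325742 to 152334071), the gene that carries the tag, was at 3.37, 2.42, 3.37 and 3.53 in the inputs and 2.79, 3.25, 3.22 and 3.1 in the IPs. Those groups overlapped, with a log2 fold change of -0.02 ± 0.11 (adjusted p = 0.878). Rpl22 was low in both groups. The tag marks the protein, and why the RNA stayed level was not tested. Its close relative Rpl22l1, which encodes a ribosomal protein that can stand in for Rpl22, fell from 57.1, 72.4, 91.4 and 44.1 to 15.6, 17, 19.1 and 19.1 (log2 fold change -1.80). The 250 bases before the start of Aldh1l1 in the RefSeq table are printed because the Cre is driven by this gene; that start lies inside the span given above, which begins at an earlier annotated start. They come from RefSeq (GRCm38.p6, chr6:90550543-90550792, plus strand), with no capitals because none of the 4 motifs searched is marked in them.

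Aldh1l1: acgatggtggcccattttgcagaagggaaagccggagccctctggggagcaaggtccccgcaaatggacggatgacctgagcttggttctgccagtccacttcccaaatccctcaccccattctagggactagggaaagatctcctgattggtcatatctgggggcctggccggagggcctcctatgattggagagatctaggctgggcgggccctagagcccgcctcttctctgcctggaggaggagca

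The 12 largest rises included genes of lipid handling, sugar breakdown and transmitter uptake. Apoe, the main lipid carrier made by astrocytes, went from 169, 76.7, 39.1 and 201 in the inputs to 3846, 3957, 2494 and 2849 in the IPs. Its log2 fold change of 4.99 ± 0.37 was 4.12 without inputs 971 and 974, in which it was lowest. Aldoc, the brain aldolase of glycolysis, went from 144, 86.4, 69.4 and 154 to 3604, 4074, 2221 and 2580.3 (log2 fold change 4.80 ± 0.26), and its 974 values were the lowest of both groups. Slc9a3r1, which encodes a scaffold that ties membrane proteins to ezrin, went from 4.93, 3.15, 1.72 and 7.39 to 149, 172, 117 and 98.9 (4.77 ± 0.26). Ezrin itself (Ezr), a linker of membrane and actin found in fine astrocyte processes, rose too (3.71). The rest of the 12 were Slc6a11, Gpr37l1, Phgdh, Pcdhgc3, Fads2, Mlc1, Clu, Acsbg1 and Entpd2, with log2 fold changes from 4.43 to 4.71. Entpd2 encodes an enzyme that breaks down extracellular ATP, and Pcdhgc3 a clustered protocadherin of the cell surface. No IP value of any of these 12 genes overlapped an input value.

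By level, IPs were led by Rn45s, then by Cst3 (cystatin C, a protease inhibitor), Cpe (a peptidase of the secretory route), Slc1a2 and Apoe. Cst3 was at 7540.3, 8614, 4091 and 5677 in the IPs and 699, 591, 407 and 713 in the inputs (3.40 ± 0.24). Cpe, also a gene of peptide-releasing neurons, was at 4902, 5210.4, 3157 and 3253 and 261, 320.1, 294 and 248 (3.84 ± 0.18). Slc1a2, the glutamate transporter GLT-1, was at 4734, 5082, 2913 and 3375 and 327, 388, 414 and 250.1 (3.53 ± 0.20). All 3 were abundant in whole striatum already, their groups did not overlap, and IPs 974 and 977 were lower than 970 and 971 for each. Sparcl1, Aldoc, Clu, Gstm1, Glul and Ndrg2 were also among the 12 highest, as was the label Mir6236. Ndrg2, a gene of astrocyte growth control, had 145 ± 22.9 in input and 2187 ± 496 in IP (mean ± SD, n = 4 each) and a rise of 3.89.

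The largest falls were neuronal and myelin genes. The somatostatin gene Sst (chromosome 16, 23889573 to 23890958) was at 268, 301, 377 and 231 in the inputs and 1.86, 4.7, 5.53 and 9.91 in the IPs (-5.64 ± 0.31). The calmodulin regulator Pcp4 went from 1104, 1576, 2414 and 795 to 20.4, 25.8, 48.5 and 44.2 (-5.33 ± 0.32). Vsnl1, a neuronal calcium sensor, went from 152, 192, 386 and 192 to 3.64, 3.69, 6.66 and 10.7 (-5.03 ± 0.28). For Pcp4 and Vsnl1, IPs 974 and 977 were higher than 970 and 971, the order of the pan-neuronal sums. Among the other 9 were Apod, Snap25, Npy, Rgs4, Mal, Sowaha, Ermn and Penk, at -4.85 to -4.05; Mal and Ermn are myelin genes, Apod a lipid carrier of oligodendrocytes, and Rgs4 and Penk genes of striatal projection neurons.

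Of the astrocyte markers, 25 of 25 were higher in IP and 0 lower, against 32.1% higher over all genes tested. Their median log2 fold change was 3.74, with medians of 3.80, 3.84, 3.39 and 3.69 in the 4 animals. The list was chosen with earlier results of these data known and includes Aldh1l1, so it is no independent check of the sample label. Gfap, the intermediate filament protein, was at 3.17, 1.6, 1.1 and 3.9 in the inputs and 65.7, 36.2, 43 and 49 in the IPs (3.90 ± 0.22), against Slc1a3 at 1172, 1313, 745 and 877. Agt, which encodes angiotensinogen, was at 86.6, 31, 28.5 and 108 in the IPs, and Slc6a11 at 627, 525, 267 and 705. In these genes IPs 971 and 974 were lower than 970 and 977, and so were the inputs (2.14, 0.801, 0.689 and 4.17 for Agt and 28.2, 13.8, 7.18 and 36.6 for Slc6a11). The smallest rises on the list were those of the bicarbonate transporter Slc4a4 (2.24) and the BMP receptor Bmpr1b (2.35).

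Pan-neuronal genes fell in 15 of 16 cases, with a median of -2.72. Their IP level as a percent of the input of the same animal had a median over the list of 8.97, 10.5, 18.2 and 14.9, so a remainder was present in each IP and was largest in 974. The falls were unequal. The synaptic fusion gene Snap25 went from 1141, 1552, 1614 and 997 to 30.6, 36.1, 62.5 and 68.6 (-4.77 ± 0.25), whereas Map2, whose RNA is carried into dendrites, fell by less (-0.92), as did Syp (-1.18, or -2.08 without inputs 971 and 974) and Thy1 (-1.27). The call of Syp was lost without animal 970 or animal 977 (-0.90 to -0.83). The tubulin gene Tubb3 was not called: its inputs were 18.9, 7.59, 5.88 and 25.4 and its IPs 9.07, 9.04, 8.88 and 7.21, with inputs 971 and 974 the lowest, and without them it fell (-1.27). Tubb3 was called without input 974 (-0.80).

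Genes of striatal projection neurons fell almost without exception. Of 19 genes shared by both pathways, 19 were lower (median -2.43), as were 6 of 6 indirect pathway genes (median -2.48) and 6 of 7 direct pathway genes (median -1.77). The D2 receptor gene Drd2 went from 227, 311, 324 and 179 to 17.7, 22, 53.3 and 40.9 (-3.01 ± 0.31), and the D1 receptor gene, listed as Drd1a, from 35.3, 38, 38.8 and 34.9 to 2.65, 3.66, 5.46 and 4.83 (-2.91 ± 0.14). In both receptors the IP of animal 970 was lowest. Ppp1r1b, which encodes DARPP-32, the phosphatase inhibitor that integrates dopamine signals, kept 94.7, 109.7, 100.4 and 116 in the IPs against 472, 221, 124 and 512 in the inputs (-1.44 ± 0.32, or -2.22 without inputs 971 and 974). Rasgrp2, an exchange factor for Ras-like proteins, fell by less (-0.70, or -1.08 without those inputs). The call of Rasgrp2 was lost without IP 970, IP 971, input 970 or input 977 (-0.58 to -0.55), and with the animal as a block over the 8 striatal libraries (adjusted p = 0.106). Eya1, a transcriptional coactivator put on the direct pathway list, went the other way (0.65 ± 0.13).

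Interneuron genes fell in 11 of 14 cases (median -1.81), and the other 3 had an input mean under 1 FPKM. The peptide gene Npy was at 62.6, 57.3, 61.2 and 54.3 in the inputs and 1.84, 0.726, 3.05 and 1.78 in the IPs (-4.45 ± 0.24). The choline transporter gene Slc5a7, of cholinergic interneurons, went from 11.2, 17.3, 18.6 and 11.5 to 0.0906, 0.315, 0.426 and 0.852 (-3.45 ± 0.19). Chat, the acetylcholine synthesis gene, fell too (-1.98), from input values of 4.7, 7.12, 6.15 and 6.62. Genes of cortical excitatory neurons were low in the inputs (Slc17a7, the vesicular glutamate transporter, at 4.15, 2.9, 1.21 and 4.3) and 6 of 10 fell, while Rorb and Fezf2, transcription factor genes of cortical layers, rose. Rorb was at 5.91, 8.9, 9.05 and 4.5 in the inputs and 47.8, 53.7, 30.6 and 42.1 in the IPs (2.48 ± 0.20), and Fezf2 at 2.08, 3.55, 3.08 and 1.21 and 17.5, 14.8, 10.1 and 12.8 (2.12 ± 0.19); neither gene had overlapping groups.

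Other glia and vessels were depleted as well. Of 17 oligodendrocyte genes, 16 fell (median -2.55), among them the myelin genes Mobp (-2.55) and Mbp (-2.08). The exception was Cnp, a myelin enzyme gene, at 52.2, 31, 30.1 and 50.8 in the inputs and 55.5, 52.8, 36.8 and 59.4 in the IPs (0.34 ± 0.18, adjusted p = 0.122). Cnp was called without IP 974, input 970 or input 977 (0.45 to 0.48). Of 9 precursor genes, 7 fell, including Sox10 (-2.23), the transcription factor of the whole lineage. Olig1, a factor of the same lineage, was higher (0.53 ± 0.22), and 0.34 without both inputs 971 and 974, where it was not called. The call of Olig1 was lost without IP 970, IP 971, IP 977, input 971, input 974 or input 977 (0.36 to 0.54). Microglial genes fell in 14 of 15 cases (median -2.11), with Cx3cr1, the fractalkine receptor gene, at 0.531, 0.613, 0.954 and 0.881 in the IPs and 7.0, 8.31, 12.7 and 7.66 in the inputs. All 7 endothelial genes tested fell, of 12 in the files; the others stayed under the filter. Of 6 perivascular fibroblast genes 5 fell, 3 without inputs 971 and 974, and the collagen gene Col1a2 rose (0.83).

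Some genes put on lists of other cell types rose. Pdgfrb, the platelet growth factor receptor of pericytes, went from 0.968, 0.605, 0.563 and 1.49 to 11.1, 10.7, 8.99 and 10.2 (2.58 ± 0.14), and Notch3 from 3.77, 3.36, 2.69 and 3.06 to 8.26, 7.48, 7.08 and 9.06 (1.09 ± 0.12). The other pericyte genes Rgs5 (-3.37), Vtn (-2.44) and Kcnj8 (-1.16, or -0.69 without inputs 971 and 974) fell, so the mural list went both ways (2 higher and 4 lower of 9, and 2 and 6 without those inputs). Of the progenitor and neuroblast list, 4 of 9 rose. The growth factor receptor gene Egfr was at 2.7, 3.59, 7.79 and 1.91 and 35.7, 31.9, 24.9 and 29.8 (2.78 ± 0.24), and Top2a, a topoisomerase of dividing cells, at 0.90, 1.2, 1.46 and 1.14 and 18, 7.22, 11 and 7.52 (2.37 ± 0.23). Dlx2 rose as well (1.53), while the division marker Mki67 (0.35, adjusted p = 0.167) and the neuroblast gene Dcx (0.15, adjusted p = 0.373) were not called. With a correction for the GC content of genes, Dcx was called (0.51). Mki67 was called without input 974 (0.53). Of the 7 ependymal and choroid plexus genes tested, 3 rose and 2 fell, and 2 rose and 2 fell without inputs 971 and 974. Among those that rose were Rarres2 (1.74) and the ciliary factor gene Foxj1 (1.05, or 0.69 without those inputs), at IP means of 9.27 and 2.53. The choroid plexus gene Ttr was not called (0.24, adjusted p = 0.809). Of 6 red blood cell genes the heme synthesis gene Alas2 alone passed the filter (0.64 ± 0.19), and no hemoglobin gene did. The call of Alas2 was lost without animal 974 (0.49). It was also lost with no scaling (0.45) and with the GC correction (0.40).

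**Figure D2:**
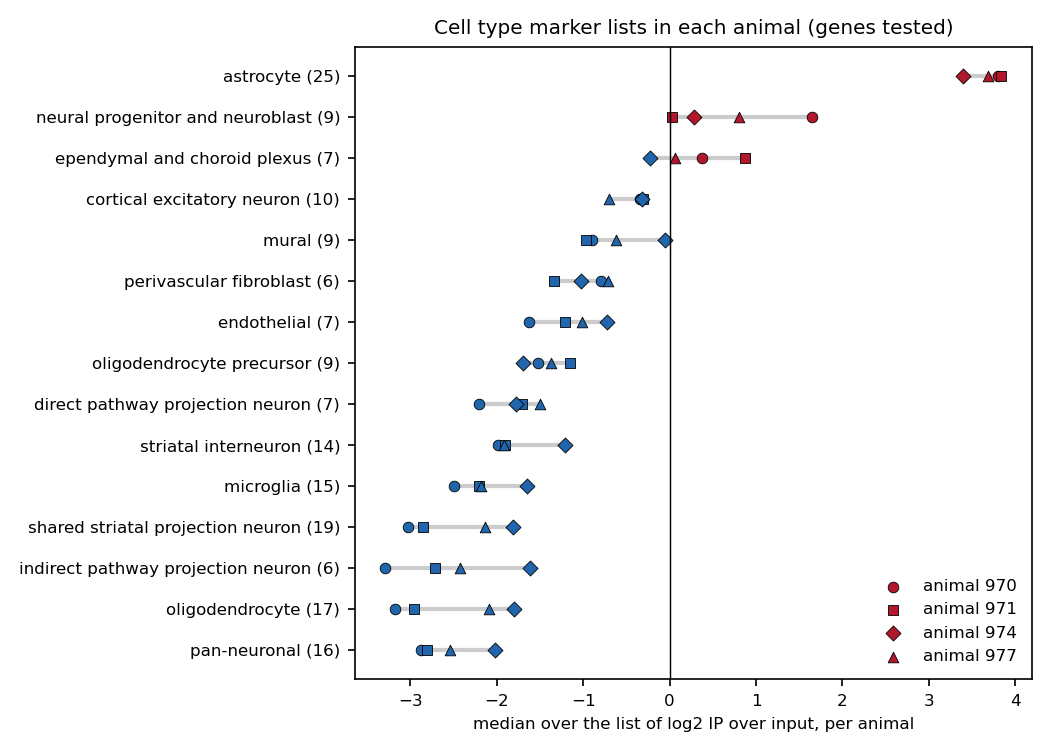
Median over each cell type marker list of log2 IP over input (x axis), 1 symbol per animal, with the number of genes tested in brackets. The astrocyte list lies between 3.39 and 3.84 in the 4 animals, and the pan-neuronal list between -2.87 and -2.02, with animal 974 nearest to 0 in both.

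Uptake and recycling of transmitter by astrocytes was represented from transporter to enzyme. Of 20 genes, 14 rose (median 2.62) and the other 6 fell. Glul, glutamine synthetase, went from 239.6, 209.8, 212 and 169 to 3259, 3425, 1738 and 2247 (3.63 ± 0.22), and Glud1, which oxidises glutamate, rose by 2.77. Slc38a3, the exporter of glutamine, rose by 4.18. Of the GABA synthesis genes, Gad1 went from 63.2, 77.8, 88 and 76.6 to 7.67, 8.27, 20.8 and 15.1 (-2.57 ± 0.23), and Gad2 fell by more (-3.92). The GABA transporter gene Slc6a11 (GAT-3, 4.71) and the breakdown enzymes Abat (2.35) and Aldh5a1 (1.88) rose. Maob, the monoamine oxidase that can also make GABA from putrescine in astrocytes, went from 5.22, 4.63, 8.65 and 6.16 to 72.2, 81, 49.5 and 54.3 (3.19 ± 0.18).

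The striatum receives dense dopamine input, and the genes that break dopamine down were higher in IP. Besides Maob, Maoa rose (1.96), as did the aldehyde dehydrogenases Aldh2 (3.17) and Aldh1a1 (3.05). Aldh1a1 was at 40.4, 32.6, 25.5 and 21.4 in the inputs and 389, 374, 136 and 190.5 in the IPs. It also makes retinoic acid, and of 13 retinoid genes 8 rose, among them the retinol dehydrogenase gene Rdh5 (2.13), while the receptor genes Rarb (-1.74) and Rxrg (-1.12), known from projection neurons, fell. Rdh5 was under 1 FPKM in every striatal input, so in striatum it reached the filter minimum only in IP. The low-affinity monoamine carrier Slc22a3 fell (-1.19). The dopamine transporter gene Slc6a3 was under the filter. Without inputs 971 and 974, 4 of the 9 genes of the dopamine and monoamine list were higher and 4 lower, against 5 and 3 with all libraries.

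Several gene families split, with some members higher in IP and others lower. Of the beta subunits of the sodium pump, Atp1b2 went from 171, 165, 147 and 131 to 1639, 1860.2, 1026 and 1361 (3.22 ± 0.18), and Atp1b1 from 343, 435, 445 and 367 to 115, 121, 105 and 79.3 (-1.92 ± 0.13). In the potassium, water and ion transport list as a whole, 19 of 27 genes rose (median 1.98), including the potassium channel Kcnj10 (3.23) and the water channel Aqp4 (3.01), whereas the background potassium channel Kcnk2 fell (-1.27). Connexins, the subunits of gap junctions, split 3 to 3. Gja1 went from 25.7, 26.8, 19.7 and 22.7 to 409, 393, 217 and 329 (3.74 ± 0.17), and Gjb6 (2.94) and Gjb2 (2.32) rose. Gjc3 went from 44.3, 43.9, 54.9 and 38 to 3.65, 3.39, 9.34 and 6.7 (-2.85 ± 0.25), and the myelin connexin Gjb1 (-1.32, or -2.13 without inputs 971 and 974) and the neuronal connexin Gjd2 (-1.05) fell.

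Calcium genes mostly fell (12 lower and 6 higher of 22), and 2 families split. Itpr2, the inositol trisphosphate receptor that releases calcium from stores in astrocytes, went from 1.14, 0.982, 1.63 and 1.2 to 13.5, 13.5, 8.27 and 9.63 (2.43 ± 0.14). Itpr1, its neuronal relative, went from 143, 168, 181 and 119 to 22.7, 22.2, 41.7 and 28.8 (-2.39 ± 0.20). Orai1 (2.04) and Orai3 (1.47), pores that refill the stores, rose and Orai2 fell (-1.91). The plasma membrane pumps Atp2b1 (-2.24), Atp2b2 (-2.06) and Atp2b3 (-2.63) fell.

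Receptors divided in the same manner. Of 41 G protein-coupled receptor genes 19 rose and 19 fell. Grm3, the metabotropic glutamate receptor of adult astrocytes, went from 32.4, 41.1, 55.2 and 35.9 to 318, 447, 278 and 246 (2.93 ± 0.18), and Grm5 from 21.9, 25.9, 31.4 and 19 to 2.51, 2.73, 5.85 and 4.87 (-2.39 ± 0.20). The adenosine receptor Adora2b rose from 2.33, 0.886, 2.2 and 1.13 to 29.3, 14.2, 8.93 and 11.1 (2.58 ± 0.33) while Adora2a, of the indirect pathway, fell (-2.12). The orphan receptor Gpr37l1 (4.57), the neurotensin receptor Ntsr2 (4.02), the lipid receptor S1pr1 (3.75) and the adhesion receptor Gpr56 (3.72) had the largest rises. The endothelin receptors Ednrb (2.92) and Ednra (2.15), the PACAP receptor Adcyap1r1 (2.90) and the adrenergic receptor Adra1a (0.48, IP mean 1.67) also rose. The call of Adra1a was lost with the animal as a block over the 8 striatal libraries (adjusted p = 0.0576). The cannabinoid receptor Cnr1 (-2.46), the serotonin receptor Htr2c (-2.87), the opioid receptor Oprm1 (-2.09) and the purine receptor P2ry1 (-1.35) fell.

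Of 29 ionotropic receptor genes, 5 rose and 19 fell. The NMDA receptor subunit Grin2c went from 3.39, 3.14, 2.07 and 2.47 to 31.6, 38.8, 26.3 and 23 (3.02 ± 0.17), and the GABA-A receptor subunits Gabrg1 (2.51) and Gabrb1 (2.08) rose, as did Grin3a (1.07) and the ATP-gated P2rx7 (0.55). Their neuronal relatives Grin2b (-1.63) and Gabrb2 (-3.54) fell. No voltage-gated channel gene on the list rose, 30 of 32 fell (median -1.75), and the beta subunit Scn4b, abundant in projection neurons, fell most (-3.58). Of 30 presynaptic genes 26 fell. The 3 that rose encode fusion and vesicle proteins: Syt11 went from 105, 88.8, 88.3 and 107 to 215, 211, 165 and 171 (0.96 ± 0.12), and Snap23 (0.65) and Vamp3 (0.39) rose by less. The call of Snap23 was lost without IP 970, IP 977 or input 977 (0.53 to 0.55), and with the animal as a block over the 8 striatal libraries (adjusted p = 0.0762). The call of Vamp3 was lost without IP 970 or IP 971 (0.31 to 0.34), and with the animal as a block over the 8 striatal libraries (adjusted p = 0.104).

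**Figure D3:**
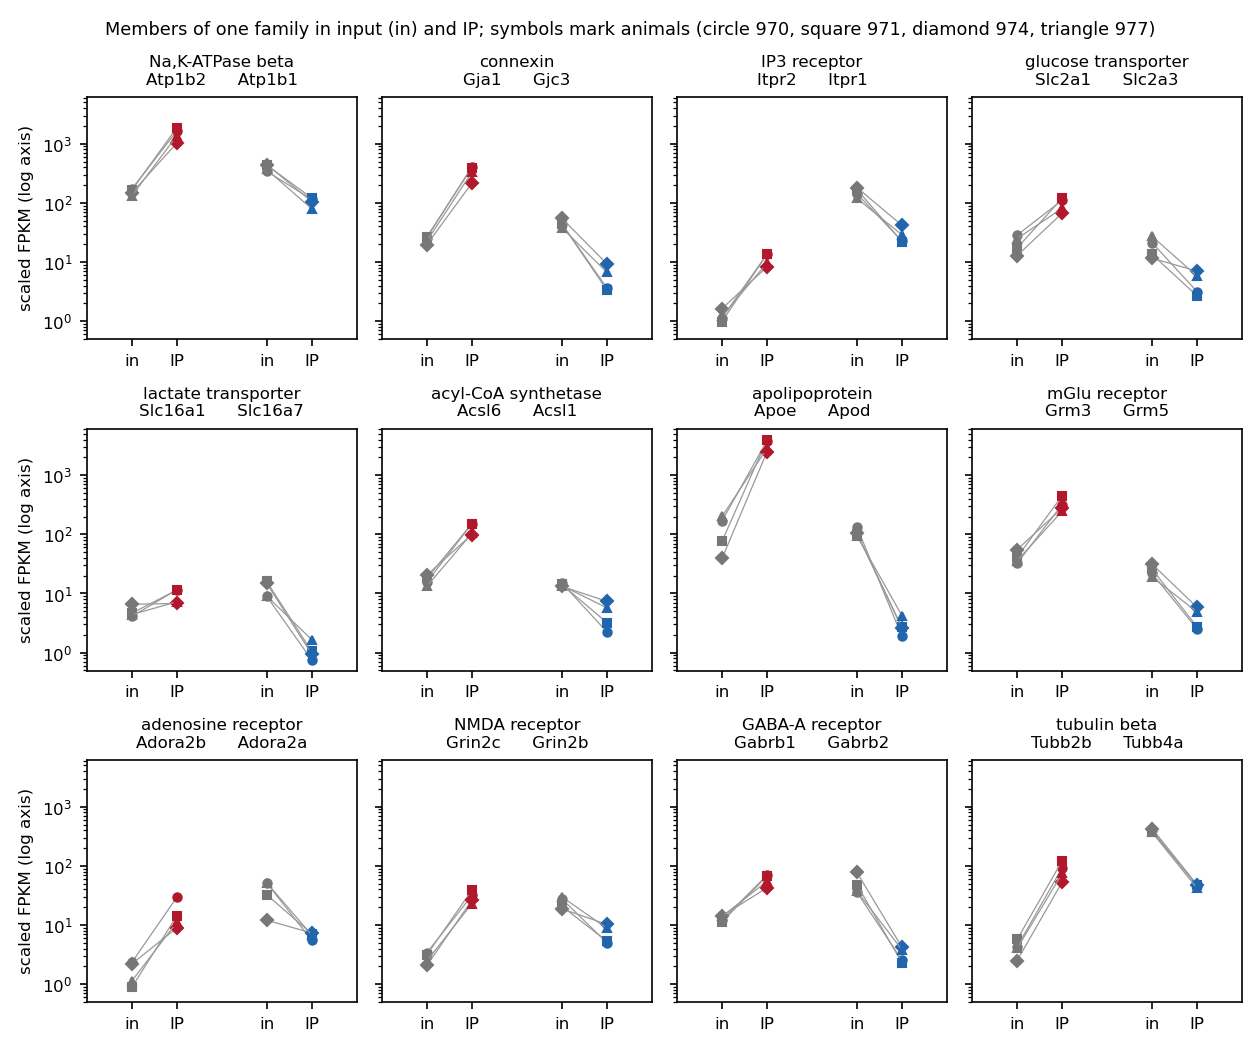
Scaled FPKM on a log axis of 2 members of each of 12 families in input (grey) and IP (red for the member that rose, blue for the member that fell), with lines joining the 2 libraries of an animal. The left member rose and the right member fell in each family, for instance Gja1 and Gjc3, and IP 974 is often nearest to its input.

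Most genes of lipid metabolism rose. Of 22 cholesterol synthesis genes, 21 rose (median 1.87). Hmgcs1, an early enzyme of the route, went from 8.92, 10.3, 15.5 and 9.39 to 61.3, 75, 67.4 and 53.5 (2.46 ± 0.15), and its master regulator Srebf2 rose by 1.91. Ebp, a sterol isomerase, fell (-0.65). In the fatty acid list 16 of 22 rose. The desaturase Fads2 went from 15.7, 12.8, 10.3 and 20.2 to 366, 399, 278 and 327 (4.47 ± 0.16), with Fads1 (3.57), the elongase Elovl2 (2.77) and the lipogenic factor Srebf1 (4.00) also higher. The acyl-CoA synthetases again split, with Acsbg1 (4.44), Acsl6 (2.82) and Acsl3 (2.71) higher and Acsl1 (-1.51), Acsl4 (-1.33) and Acsl5 (-1.21) lower. For lipid export, Abca1, the transporter that loads Apoe, rose (2.73) and Abcg1, of the same superfamily, fell (-2.24). Apod was at 132, 103, 104 and 94.1 in the inputs and 1.89, 2.69, 2.59 and 4.23 in the IPs (-4.85 ± 0.27), the opposite of Apoe.

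In mitochondrial fatty acid oxidation, 20 of 22 genes rose, none fell, and the median was 2.50. Cpt1a, which admits fatty acids to mitochondria, went from 4.84, 5.75, 9.27 and 4.52 to 77.7, 78.9, 53.4 and 60.8 (3.30 ± 0.18). Acaa2, of the last step of the cycle, went from 11.9, 8.32, 9.5 and 10.3 to 121, 134, 86.2 and 87.6 (3.28 ± 0.14). Ppara, the receptor that regulates this pathway, rose as well (2.04), and the neuronal form Cpt1c was not called (0.22, adjusted p = 0.388). In striatum Ppara reached the filter minimum of 1 FPKM only in IP. Peroxisome genes rose in 22 of 30 cases (median 0.72), among them Phyh (3.12) and Ephx2 (2.81). Pex5l, a brain-specific relative of the import receptor, fell (-1.91).

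Sugar metabolism genes rose with few exceptions. Of 18 glycolysis genes 17 rose, and Eno2, the neuronal enolase, fell from 160.04, 98.5, 64.4 and 165 to 9.19, 9.68, 21.5 and 18.1 (-2.96 ± 0.32). Gapdh rose by 2.10 and Ldhb by 1.97, more than Ldha (0.52). The call of Ldha was lost without IP 970, IP 971 or input 974 (0.40 to 0.42), and with the animal as a block over the 8 striatal libraries (adjusted p = 0.0519). It was also lost without both inputs 971 and 974 (0.38), with no scaling (0.23) and with the GC correction (0.38). Of 22 genes of glycogen, glucose and lactate, 20 rose: the phosphorylase Pygb went from 17.3, 16.4, 11 and 22.2 to 352, 338, 238 and 278 (4.12 ± 0.17), and Pygm (3.69), the glycogen-targeting subunits Ppp1r3c (3.17) and Ppp1r3g (2.85) and the synthase Gys1 (2.61) rose too. The 2 that fell were neuronal carriers, the glucose transporter Slc2a3 (-1.77) and the monocarboxylate transporter Slc16a7 (-2.63), beside rises of Slc2a1 (2.15) and Slc16a1 (0.77). Citrate cycle genes rose in 18 of 27 cases, with Idh2 at 3.54 and the carboxylase Pcx, which refills the cycle in astrocytes, at 1.92, while the transaminases Got1 (-1.93) and Got2 (-1.73) and the aspartate carrier Slc25a12 (-1.14) fell. Respiratory chain genes were mixed (21 higher, 7 lower of 37), and their median of 0.67 became 0.35 without inputs 971 and 974.

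Amino acid, redox and metal genes were higher in most cases. Phgdh, the first enzyme of serine synthesis, was at 173, 172, 141 and 139.7 in the IPs, and 13 of 19 genes of its list rose, including Gldc of glycine cleavage (3.71) and Cbs (3.73). Srr, which makes D-serine, fell from 21.7, 29.5, 28.7 and 17.7 to 10, 12.7, 11.7 and 11.7 (-0.99 ± 0.14). In the glutathione and metallothionein list 21 of 26 rose and 3 fell, or 18 and 1 without inputs 971 and 974. Gstm1, a glutathione transferase, went from 256, 141, 65.9 and 230.1 to 3443, 3585, 1988 and 2604 (4.20 ± 0.33), and Mt2 (3.60), Prdx6 (3.29) and the cystine carrier Slc7a11 (2.70) rose. Gstp1 was at 21.1, 6.42, 1.72 and 23.6 in the inputs and 28, 24.6, 21.7 and 21.7 in the IPs, and its log2 fold change of 1.28 became 0.09 without inputs 971 and 974. Gpx4 behaved alike (0.80 and 0.09), and Gpx1 fell (-1.08, or -1.71 without inputs 971 and 974). The call of Gstp1 was lost without IP 970, IP 971, input 971 or input 974 (0.64 to 1.27), and with the animal as a block over the 8 striatal libraries (adjusted p = 0.0744). The call of Gpx4 was lost without IP 970, IP 971, input 971 or input 974 (0.42 to 0.74), and with the animal as a block over the 8 striatal libraries (adjusted p = 0.0682). The call of Gpx1 was lost without animal 977 (-0.74). The zinc transporter Slc39a12 was at 5.58, 4.84, 5.89 and 5.48 in the inputs and 136, 121, 85.7 and 91.4 in the IPs (4.06 ± 0.13), and no other zinc transporter of the 14 rose by more than 1.20.

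Thyroid hormone genes included a transporter, the activating enzyme and a binding protein. Slco1c1, which carries the hormone across membranes, rose (2.70), as did the deiodinase Dio2, from 25.9, 42.4, 59.5 and 14.7 to 173, 244, 143 and 113 (2.33 ± 0.32). Crym (chromosome 7, 120186380 to 120202111), which encodes mu-crystallin, a cytosolic binding protein, went from 37, 44.2, 41.1 and 50.7 to 278, 388, 248 and 222 (2.66 ± 0.23). Of the receptor genes Thra fell (-0.45, or -0.86 without inputs 971 and 974) and Thrb was not called (-0.35, adjusted p = 0.125), and the hormone-responsive neuronal gene Nrgn fell (-2.96). The call of Thra was lost without IP 970, IP 971, IP 974, input 970 or input 977 (-0.48 to -0.29), and with the animal as a block over the 8 striatal libraries (adjusted p = 0.122). Thrb was called without input 970 or input 977 (-0.51 to -0.49).

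Genes of developmental signalling pathways were mostly higher in IP. Of 19 Notch genes 14 rose: the receptor Notch1 went from 3.13, 2.02, 1.55 and 2.62 to 49.2, 50, 30.7 and 35.2 (3.66 ± 0.16), and Notch2 (2.86), the modulator Lfng (3.53) and the target Hes5 (3.17) rose. Among the ligands, Jag1 rose by 0.36, Dll1 fell (-0.40) and Jag2 was not called (-0.23, adjusted p = 0.442), although it was with the GC correction and the replicate block together (-0.41). The call of Jag1 was lost without IP 977 or input 977 (0.26 to 0.31), and with the animal as a block over the 8 striatal libraries (adjusted p = 0.153). The call of Dll1 was lost without IP 971, IP 977 or input 974 (-0.36 to -0.31) and without both inputs 971 and 974 (-0.29). It was also lost with the animal as a block over the 8 striatal libraries (adjusted p = 0.0811). In the hedgehog pathway the receptor Ptch1 (2.37), the transducer Smo (2.32) and the effectors Gli2 (3.10) and Gli3 (2.06) rose, and the ligand Shh fell from 1.57, 2.08, 4.75 and 1.66 to 0.11, 0.0211, 0.0775 and 0.207 (-1.59 ± 0.19). In the Wnt list 25 of 28 rose, including the receptors Fzd2 (3.53) and Fzd4 (1.79), the ligands Wnt7a (1.85) and Wnt7b (2.36) and the secreted Dickkopf family gene Dkk3, from 40.4, 42.2, 57.6 and 28.5 to 512, 511, 364 and 349 (3.35 ± 0.19). Of these, Wnt7b reached the filter minimum of 1 FPKM in striatum only in IP. Only Fzd3 (-1.31, or -0.86 without inputs 971 and 974) and Rspo1 (-1.42) of that list fell.

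Growth factor genes split by role less clearly. The receptors Fgfr3 (3.13), Fgfrl1 (2.79), Fgfr1 (2.17) and Fgfr2 (1.49) rose, with the ligands Fgf1 (2.16) and Fgf2 (1.74). Fgf9, a ligand made by neurons, fell (-2.05), as did the channel-binding Fgf12 (-1.52), Fgf13 (-1.85, or -1.16 without inputs 971 and 974) and Fgf14 (-2.35). In the BMP and TGF-beta list 15 of 27 rose and 8 fell. The BMP targets Id3, from 10.8, 6.18, 7.72 and 9.69 to 141, 127, 113 and 93.1 (3.64 ± 0.16), Id2 (3.32) and Id1 (2.84) led it, and the ligands Bmp6 (1.85) and Bmp7 (1.64) rose while Bmp2 (-1.79) and Bmp4 (-1.37) fell.

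Of 37 transcription factor genes of glia and forebrain, 27 rose and 6 fell. Sox9, a defining factor of astrocytes, went from 9.95, 7.76, 8.48 and 9.85 to 151, 157, 115 and 139 (3.82 ± 0.13), and Lhx2 (3.37), Sox2 (3.26), Dbx2 (3.19) and Npas3 (2.70) rose. The nuclear factor I genes Nfix (2.53), Nfib (1.94), Nfia (1.61) and Nfic (1.22) all rose. Meis2 (-1.79), Zic1 (-2.02), Dlx5 (-0.94) and Six3 (-0.42), of ventral forebrain neurons, fell, and Six3 did so by the least. The call of Six3 was lost without IP 974, IP 977, input 970 or input 971 (-0.38 to -0.29), and with the animal as a block over the 8 striatal libraries (adjusted p = 0.0584).

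Proteins that astrocytes release onto synapses or use to clear debris were represented. Of 17 secreted regulators 13 rose. Sparcl1 (hevin), which promotes synapse formation, was at 3805, 3730.1, 2289 and 3051 in the IPs and 214, 197, 209 and 201 in the inputs (3.94 ± 0.16), and its antagonist Sparc at 870.2, 487, 252 and 756 and 65.5, 37.2, 33.9 and 61.9 (3.46 ± 0.33). Sparc was lowest in animal 974 in both IP and input. Thbs4, a thrombospondin, rose (3.98) and the glypican Gpc5 (3.63) with it. In the engulfment list 11 of 15 rose, including Mfge8 (4.32), Mertk (3.22), Axl (3.02) and Megf10 (2.32), while the third receptor of the Mertk family, Tyro3, fell (-1.04), as did Elmo1 (-2.98). Matrix genes rose in 18 of 26 cases. Bcan, a lectican of perisynaptic matrix, went from 12.3, 8.17, 6.23 and 13.3 to 238, 246, 157 and 181 (4.26 ± 0.19), and Ncan rose by 2.71, whereas Hapln4 (-1.66) and Tnr (-0.89), of perineuronal nets, fell. Of 22 synaptic adhesion genes 6 rose and 11 fell, and the presynaptic neurexins went both ways, with Nrxn2 at 1.11 (0.74 without inputs 971 and 974) and Nrxn3 at -1.70.

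Reactive, immune and activity genes went different ways. Of 8 pan-reactive genes 5 rose; besides Gfap these were Serpina3n, from 12.9, 6.04, 11.5 and 13.5 to 120.2, 67.4, 80.4 and 114 (3.02 ± 0.25), Vim (2.67), Osmr (1.52) and Cxcl10 (0.82, IP mean 1.48). The call of Cxcl10 was lost without IP 977, input 971 or input 974 (0.48 to 0.83) and without both inputs 971 and 974 (0.66). Every striatal input of Cxcl10 was under 1 FPKM. The acute reactive marker Lcn2 was under the filter. Interferon genes rose in 9 of 14 cases, and H2-K1, an antigen-presenting molecule, went from 6.89, 3.88, 3.55 and 7.9 to 41.5, 48.4, 33.3 and 38.9 (2.71 ± 0.22). Immediate early genes, which neuronal firing induces, fell in 12 of 17 cases, with Egr1 from 109.7, 132, 121 and 122 to 4.94, 8.0, 17.3 and 13.2 (-3.49 ± 0.28), while Jun rose (1.67) and Fos was not called (-0.41, adjusted p = 0.317). Clock genes were mixed (8 higher, 3 lower of 16, with 1 lower without animal 970 or 971), with Bhlhe40 (2.13) and Nr1d1 (1.55) higher and Clock lower (-0.98). The collection times are not given in the sources used here.

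Cytoskeletal genes split by isotype. Tubb2b, a beta tubulin, went from 4.29, 5.7, 2.5 and 4.03 to 92.6, 122, 53.2 and 74.4 (4.05 ± 0.22), and Tubb4a from 399, 378, 428 and 369 to 46.1, 47.4, 47.9 and 42 (-3.07 ± 0.11). The kinesins Kif5a (-2.12) and Kif5c (-2.71) fell, and the widely expressed Kif5b was not called (0.33, adjusted p = 0.0816). Kif5b was called without IP 974 or input 974 (0.45 to 0.50). Among intermediate filaments, the neurofilament genes Nefl (-3.22) and Nefm (-3.92) fell opposite to Gfap and Vim.

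**Figure D4:**
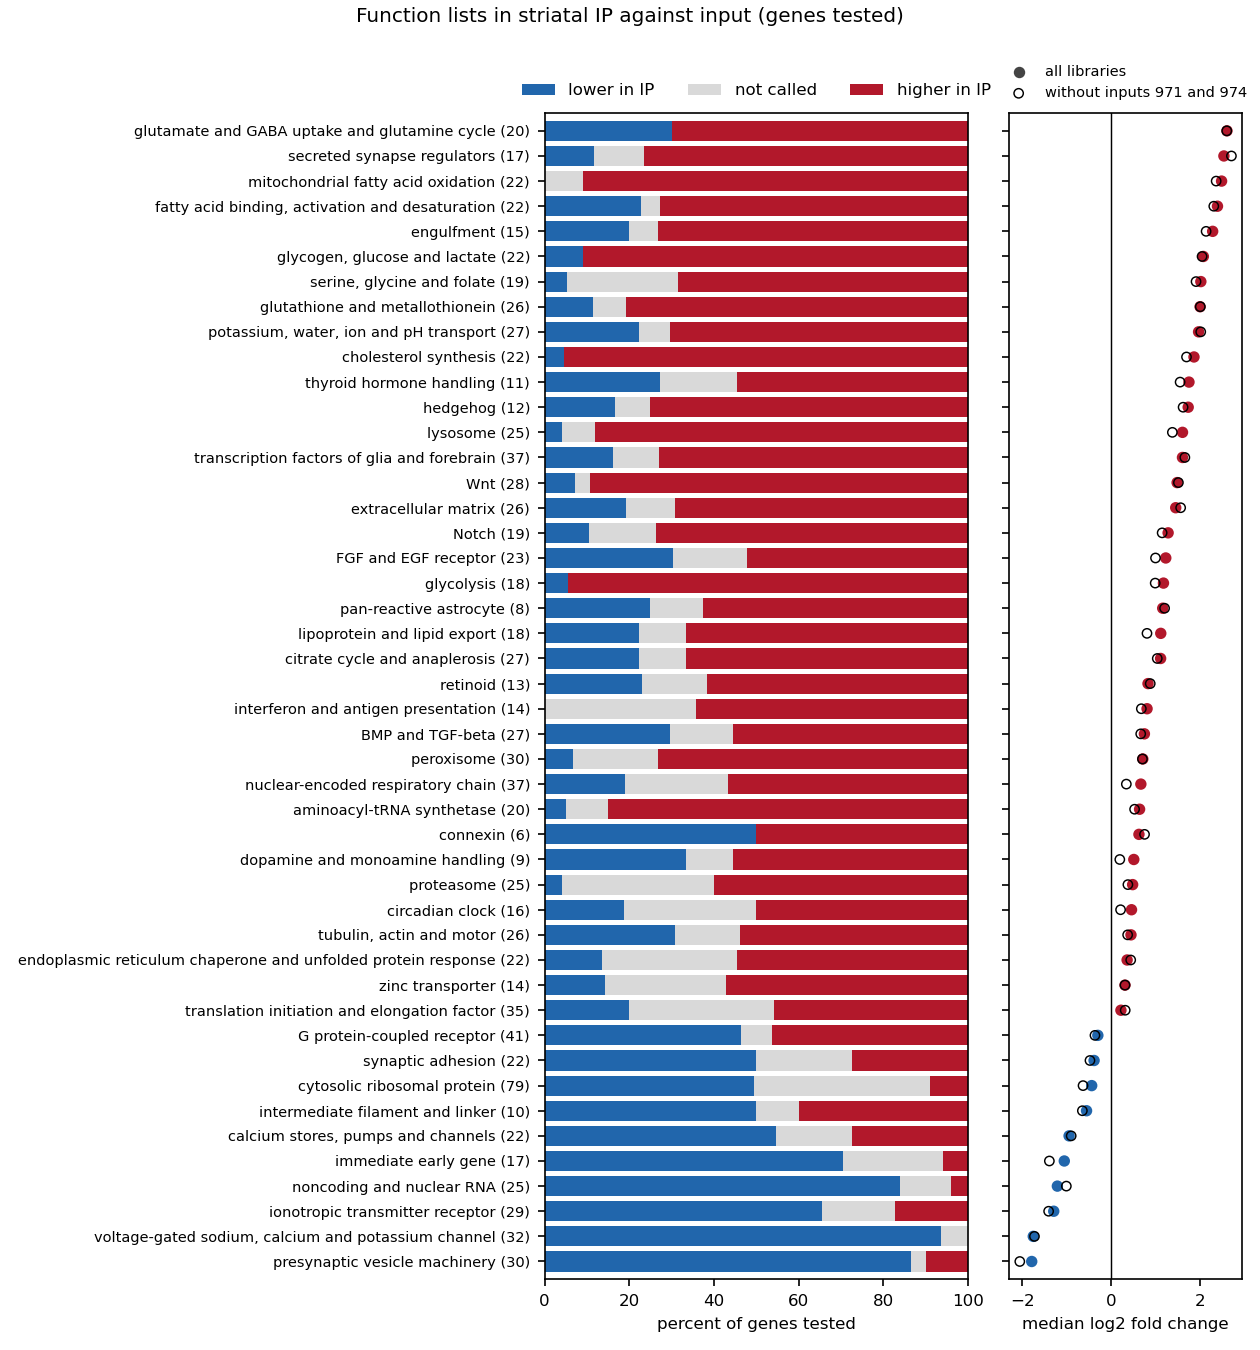
Left, percent of the genes tested in each of 46 function lists that were lower (blue), not called (grey) or higher (red) in striatal IP, against 33.1% lower and 32.1% higher over all genes tested; right, median log2 fold change of each list with all libraries (filled) and without inputs 971 and 974 (open). With all libraries, glutamate and GABA uptake has the highest median (2.62) and the presynaptic machinery the lowest; without inputs 971 and 974, the secreted synapse regulators are highest (2.72).

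The translation and protein turnover machinery moved little or unevenly. Of 79 ribosomal protein genes 39 fell and 7 rose (median -0.44), and without inputs 971 and 974 it was 58 and 2 (median -0.63). Without input 977, 11 rose. Reads of these short genes may also match their many pseudogene copies, which leaves the value of any 1 of them unsure. Rpl22l1 had the largest fall of the list. Aminoacyl-tRNA synthetases, which charge tRNA, rose in 17 of 20 cases but by little (median 0.65), with Dars the largest (1.40). Without inputs 971 and 974, 13 rose (median 0.53). Elongation factor genes split, as Eef2 rose (1.14, or 0.68 without inputs 971 and 974), Eef1a1 was not called (0.14, adjusted p = 0.25) and the neuronal and muscle form Eef1a2 fell (-1.62). Chaperones of the endoplasmic reticulum rose in 12 of 22 cases and proteasome genes in 15 of 25, with medians of 0.36 and 0.49. Lysosome genes rose further: 22 of 25 were higher (median 1.61). Lamp1, a membrane protein of lysosomes, went from 76, 65.5, 69.5 and 71.5 to 411, 438, 314 and 346 (2.39 ± 0.12), and the protease Ctsd rose by 2.08.

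Noncoding and nuclear RNAs fell in 21 of 25 cases (median -1.21), against 33.1% lower over all genes tested. Ribosomes mostly do not hold such RNAs, but here this cannot be told apart from a loss of neuronal RNA, as in the pan-neuronal list. Malat1 was at 989, 1358, 3167 and 2668 in the IPs (-1.53 ± 0.40), and without inputs 971 and 974, where it was highest, at -0.89, which was not called. Meg3 fell by more (-2.10), as did Snhg11 (-2.12), whose label is annotated as protein coding. Pantr1, a noncoding RNA next to a forebrain transcription factor gene, was the exception, at 32.1, 44.5, 32.7 and 26 in the inputs and 83.3, 126, 88.6 and 82.9 in the IPs (1.47 ± 0.18). The library kit does not mark strand, so overlapping and antisense genes share reads.

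Promoter sequence was read for the members with the largest falls, because several of them encode proteins of secretory granules that are known to be regulated through the cyclic AMP response element (CRE). The motif TGACGTCA, which reads the same on both strands, was found in the 250 bases before the start in 7 of 124 promoters of genes that fell by at least 3 (5.65%), in 2 of 165 of those that rose by at least 3 (1.21%), in 2.63% of the promoters of genes tested and in 1.55% of all RefSeq promoters. The 7 promoters with it among the falls belong to 6 genes, Sst, Chgb, Syn1, Sh3gl2, Scg2 and Bend6, and the rises to Lmf2 and Lmcd1. Sst, Chgb and Scg2 encode granule cargo, and their promoters (RefSeq, GRCm38.p6, each written 5′ to 3′ on its own strand, with the CRE in capitals) show the motif 48, 72 and 68 bases before the start. The start of Sst in that table also lies inside the span given above. They lie at chr16:23890845-23891094 (minus strand), chr2:132781392-132781641 (plus strand) and chr1:79440027-79440276 (minus strand).
Sst: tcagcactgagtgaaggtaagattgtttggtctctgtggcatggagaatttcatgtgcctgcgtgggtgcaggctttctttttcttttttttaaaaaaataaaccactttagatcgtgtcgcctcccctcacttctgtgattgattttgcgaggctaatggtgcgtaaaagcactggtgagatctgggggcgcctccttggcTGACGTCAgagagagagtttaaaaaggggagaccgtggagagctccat
Chgb: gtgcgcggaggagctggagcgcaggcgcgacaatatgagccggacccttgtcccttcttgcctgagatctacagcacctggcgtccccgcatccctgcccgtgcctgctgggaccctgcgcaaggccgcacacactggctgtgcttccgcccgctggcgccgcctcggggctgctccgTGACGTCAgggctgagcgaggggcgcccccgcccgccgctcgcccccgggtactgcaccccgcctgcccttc
Scg2: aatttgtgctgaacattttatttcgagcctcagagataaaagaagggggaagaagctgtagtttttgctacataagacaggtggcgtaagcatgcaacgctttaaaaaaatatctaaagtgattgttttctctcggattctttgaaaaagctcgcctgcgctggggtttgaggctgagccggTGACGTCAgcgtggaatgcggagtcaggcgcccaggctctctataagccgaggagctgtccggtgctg
Chgb, or chromogranin B, was at 98.5, 107, 86.3 and 86.3 in the inputs and 4.45, 5.57, 9.63 and 6.79 in the IPs (-3.69 ± 0.18), and Scg2, or secretogranin II, at 70.7, 94, 90 and 72.4 and 5.85, 9.51, 7.73 and 7.34 (-3.27 ± 0.15). The nuclear factor I motif TTGGCA, searched on both strands, was in 10.1% of promoters of genes that rose and in 9.60% of those that fell, against 9.82% of those tested. The SOX motif ACAAAG was in 12.6% and 12.4%, against 12.3%. The TATA box TATAAA was in 7.21% and 6.84%, against 6.40%. At this same cut the CRE was in 2.43% and 2.83%, against 2.63%. The larger CRE share among the largest falls rests on 7 promoters of 6 genes and was not tested. In genes that rose and fell by at least 3, the TATA box was in 7.27% and 11.3%. At that cut the nuclear factor I motif was in 10.9% and 8.87%, and the SOX motif in 12.1% and 12.9%. A match of letters is a description and shows no binding.

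Striatal enrichment was then set against that of the hippocampus, where IP and input came from the same mice but from other libraries. The difference between regions was called for 1904 genes (14.1%), 1181 with a higher (8.77%) and 723 with a lower (5.37%) ratio of IP to input in striatum. This split depended on the scaling, with 913 higher and 959 lower under median ratio scaling. It also depended on single animals and libraries, since 958 genes were called without animal 970, 764 without animal 971 and 3059 without striatal input 977. Of the 25 astrocyte markers, 2 were called, Slc4a4 (-1.66 ± 0.28) and Ttyh1 (-0.90 ± 0.22), both with a smaller ratio in striatum. The largest positive difference by the naming rule was that of Crym (5.77 ± 0.33, adjusted p = 5.09e-08), higher in IP in striatum and lower in IP in hippocampus (-3.11). The GABA-B receptor subunit Gabbr2 (3.51 ± 0.24) and the Wnt enhancer Rspo3 (3.05 ± 0.29) had the same pattern, with -2.09 and -0.99 in hippocampus. Dkk3 (3.05 ± 0.28) and the synaptogenic glypican Gpc4 (2.60 ± 0.26) rose in striatum and were not called in hippocampus (0.31 and 0.33). Gm2115 (3.04 ± 0.19), an unnamed locus, and Mir6911 (3.35 ± 1.04), a small RNA locus, completed the 6 largest with Crym, Gabbr2, Rspo3 and Dkk3.

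Negative differences included genes with a low level in hippocampal input. Among the 6 largest were the cholinergic transporter Slc5a7 (-3.19 ± 0.27), Ido1 (-3.57 ± 0.33), Cd4 (-3.26 ± 0.34), Gucy1a3 (-3.20 ± 0.24) and Ppp1r1b (-4.02 ± 0.45). The first 3 of these had a mean under 1 FPKM in hippocampal input, which leaves little room for a fall there. Ppp1r1b fell in striatal IP but rose in hippocampal IP (2.58), and the guanylate cyclase subunit Gucy1a3 went both ways as well (-1.71 and 1.49). Ido1, an enzyme of tryptophan breakdown, was at 18.3, 26.9, 40 and 12.8 in the striatal inputs and 0.782, 0.767, 1.29 and 1.03 in the IPs, and Cd4, known as a T cell coreceptor, at 58, 67.7, 75.5 and 46 and 2.54, 3.8, 9.17 and 5.38. Among signalling genes Id4 was less enriched in striatum (-2.29 ± 0.30), and among glycolytic genes the phosphofructokinase Pfkl was more enriched (1.78 ± 0.42, or 1.06 without striatal inputs 971 and 974, in which it was low). The ratio of IP to input was higher in striatum than in hippocampus for the neuronal genes Tubb3 (2.51 ± 0.47) and Syp (1.93 ± 0.51), and lower for Drd1a (-2.41 ± 0.20), Drd2 (-1.85 ± 0.44) and Scn4b (-2.32 ± 0.25). Striatal inputs 971 and 974, in which Tubb3 and Syp were low, move with the first 2, and without them the difference was 1.73 for Tubb3 and 1.04 for Syp.

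**Figure D5:**
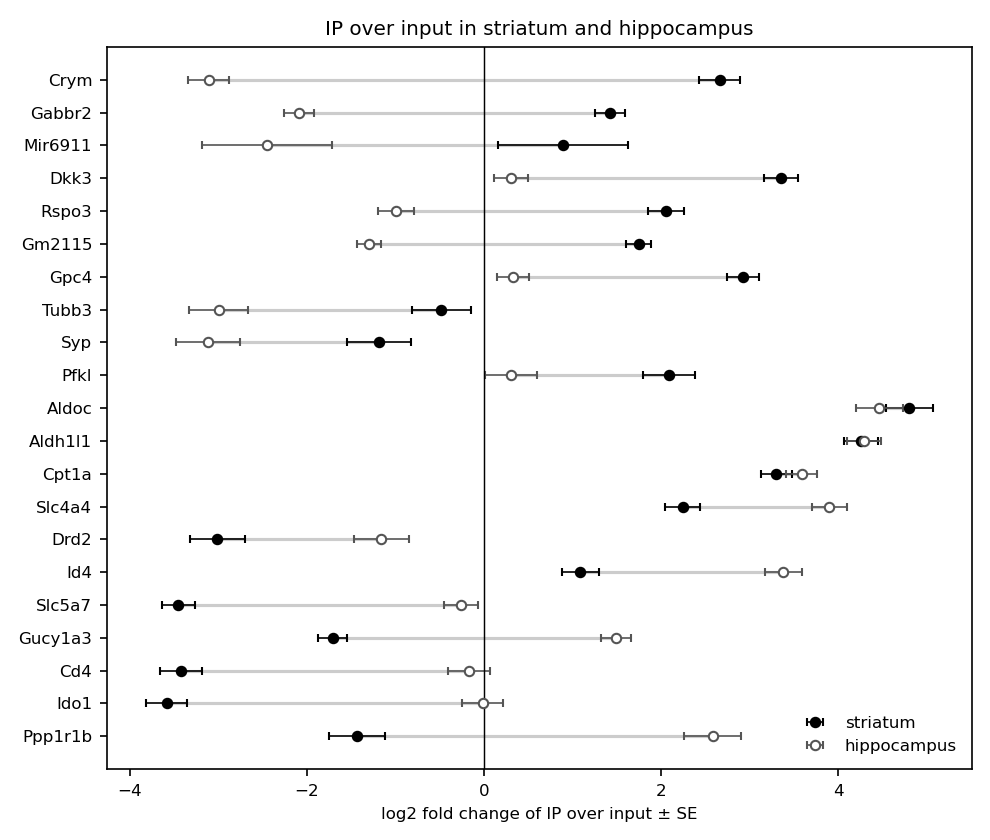
Log2 fold change of IP over input (x axis) with its standard error in striatum (filled) and hippocampus (open) for 11 of the 12 genes with the largest differences between regions and 10 others. Crym lies at 2.66 in striatum and -3.11 in hippocampus, Ppp1r1b lies at opposite signs the other way, and Aldh1l1 lies at nearly the same value in both.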

How the data were processed

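RNA-seq was made from cleared lysate and HA-precipitated RNA of whole striata and hippocampi with the Nugen Ovation RNA-Seq System V2, per the labels' protocols, from single animals. Reads were handled with bcl2fastq 2.17, STAR, HTSeq and mm10, per the submitters' processing notes; versions of the others are not given in the sources used here. The authors deposited 1 table of FPKM per library; counts were not used here.

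FPKM were divided by trimmed-mean factors (30% of log ratios and 5% of levels trimmed) and tested as log2(value + 1) with limma 3.58.1 (R 4.3.3; trend and robust variance, 12 residual degrees of freedom) in 1 fit of all 16 libraries with 4 group terms. Genes needed at least 1 FPKM in 4 libraries (13470 of 24060 labels), and 27 labels that had become dates were never named. P-values were adjusted by Benjamini-Hochberg over all genes tested, with calls at 0.05. Libraries of the same number come from 1 animal; deviations of striatal input and IP from their group means correlated at -0.01 to 0.08 within animals, and those of the hippocampal and striatal IPs at 0.30 to 0.53, but at 0.36 to 0.37 also between animals 970 and 971, at 0.29 to 0.36 between 974 and 977, and at -0.47 to -0.30 across these pairs. Alternatives were the pseudocount, filter, scaling, variance model, animal block, GC correction and libraries left out. The test was tried on simulated data of 13470 genes, of which 67, 67 and 66 were changed 1.5-fold, 2-fold and 4-fold. Of these changes 46.3%, 85.1% and 100% were recovered, and 3.14% of calls were false. The simulation had independent noise per gene, no scaling and changes in few, well expressed genes. Its rates therefore do not carry over to the real libraries, where 65.2% of genes were called and libraries shared shifts.

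Genes named are Aldh1l1, Rpl22, the 12 largest rises and falls, the 12 highest in IP, the 6 largest region differences each way and, per list, members with the smallest p, those against the list's direction and those that define it; some genes the rule takes are not reported here. The comparison, the 62 gene lists and the promoter motifs were chosen with earlier results of these data known.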

Additional observations from a re-analysis of the deposited data

Results flagged for a closer look

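Of 598 groups of 4 libraries, for the genes named above, 15 had 1 value far from the other 3, where chance gives about 1 in 20 groups. That is fewer than the chance rate, so no single gap below is set apart from chance. Each is given in scaled FPKM. In striatal IP 971, Pantr1 (126) was the highest of the group by such a gap. In striatal IP 974, Adcyap1r1 (72.7), Mir6236 (1559) and Npas3 (14.5) were the lowest of the group by such a gap. In striatal IP 977, Fgf13 (2.86), Gpx1 (9.88) and Tubb3 (7.21) were the lowest of the group by such a gap. In striatal input 971, Rpl22 (2.42) was the lowest of the group by such a gap. In striatal input 974, Dcx (2.36) was the highest of the group by such a gap. In striatal input 974, Bmp6 (0.631), Ldha (26.2) and Mir6911 (0) were the lowest of the group by such a gap. In striatal input 977, Gm2115 (4.3), Oprm1 (6.5) and Prdx6 (40.3) were the lowest of the group by such a gap.

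The ratio of IP to input differed between striatum and hippocampus, by a test of the difference itself, for 73 of the 299 named genes. Over all genes tested the share was 14.1%. Some of these genes were named because their region difference was large, so the count is not set against that share. Each difference is in log2 units, striatum minus hippocampus, at an adjusted p under 0.05 (limma). Genes higher in IP in striatum and lower in IP in hippocampus were Crym (5.77), Dlx2 (2.06), Gabbr2 (3.51), Gm2115 (3.04) and Rspo3 (3.05). Genes higher in IP in striatum and not called in hippocampus were Col1a2 (1.01), Dkk3 (3.05), Fezf2 (1.80), Gpc4 (2.60), Jun (1.80), Orai3 (1.70), Pfkl (1.78) and Top2a (1.93). Genes higher in IP in striatum and higher in IP in hippocampus were Bhlhe40 (0.955), Eya1 (-1.39), Fgfr2 (-0.687), Gabrb1 (0.819), Gabrg1 (-0.970), Gli3 (-1.27), Glud1 (-0.602), Grm3 (-0.871), Id4 (-2.29), Jag1 (-1.27), Ldhb (-0.585), Megf10 (-1.04), Nfib (1.20), Nfix (1.67), Olig1 (-0.997), Osmr (-1.26), Serpina3n (1.81), Slc4a4 (-1.66), Ttyh1 (-0.901), Vamp3 (-0.640), Vim (-0.719) and Wnt7b (1.04). Genes not called in striatum and lower in IP in hippocampus were Cpt1c (1.15), Dcx (1.09), Mir6911 (3.35) and Tubb3 (2.51). Genes not called in striatum and higher in IP in hippocampus were Cnp (-1.03) and Kif5b (-0.826). Genes lower in IP in striatum and lower in IP in hippocampus were Acsl5 (1.02), Apod (-1.59), Atp1b1 (1.13), Bmp2 (-0.986), Drd1a (-2.41), Drd2 (-1.85), Eef1a2 (1.26), Elmo1 (-0.711), Grin2b (0.982), Hapln4 (1.70), Orai2 (0.996), Penk (-1.27), Scn4b (-2.32), Shh (-1.03), Slc17a7 (2.36), Syp (1.93) and Thy1 (1.15). Genes lower in IP in striatum and not called in hippocampus were Adora2a (-2.62), Cd4 (-3.26), Chat (-1.89), Fzd3 (-1.48), Ido1 (-3.57), Meis2 (-1.94), P2ry1 (-1.43), Rarb (-2.09), Slc22a3 (-1.08) and Slc5a7 (-3.19). Genes lower in IP in striatum and higher in IP in hippocampus were Ebp (-1.09), Gucy1a3 (-3.20), Kcnk2 (-2.53), Ppp1r1b (-4.02) and Zic1 (-2.68).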

How the results depend on the processing

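The tables hold FPKM, so the depth behind a single value is an estimate. The striatal comparison gave 3137 to 4564 genes higher and 3237 to 5573 lower over all settings, within 1.5 times the reported 4327 and 4456. The lowest counts came with a filter of 5 FPKM, under which fewer genes were tested. The 8 striatal libraries alone gave 3670 and 3752. The direction split rested on the scaling: with no scaling, 3151 were higher and 5573 lower (36.1% higher in place of 49.3%), around a median of all genes of -0.25. No scaling ended 9 calls of named genes, all of them rises: Alas2, Cxcl10, Gpx4, Gstp1, Jag1, Ldha, Olig1, Snap23 and Vamp3. It added the call of Thrb. Leaving out inputs 971 and 974 ended 7: Cxcl10, Dll1, Gpx4, Gstp1, Ldha, Malat1 and Olig1. With the animal number as a block, 4426 were higher and 4556 lower over 16 libraries, and 3539 and 3576 over the 8 striatal ones; the block over 16 libraries changed no call of the 299 named genes, and over the 8 striatal ones it ended 11. A correction for GC content, chosen after seeing the data, gave 4283 and 4540, and kept 7728 of the 8783 calls.

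The region difference was less stable. Leaving out 1 animal or library gave 764 to 3059 genes called, with 488 to 1846 positive and 276 to 1213 negative; the cause was not tested. The highest counts came without striatal input 977. The positive share was 62.0% as reported, 72.2% with no scaling (1599 against 616, around a median of 0.25), 48.8% under median ratio scaling (913 against 959), 47.1% with the GC correction (906 against 1018) and 46.8% with that correction and the replicate block, which gave 1143 negative differences; the cause was not tested. The replicate block alone gave 1334 positive and 817 negative. Fits on the 8 striatal libraries give no region difference. None of the named genes changed direction past the threshold in the striatal comparison under any of the 25 settings.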
